A study of Rattus norvegicus with 4 samples.

Results

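The genes described here are receptors for monoamines, acetylcholine, glutamate and neuropeptides, examined for trimethylation of histone H3 at lysine 27 (H3K27me3) in rat sciatic nerve. They were chosen by name alone, as every gene of the deposited peak list whose symbol starts like a serotonin (Htr), dopamine (Drd), adrenergic (Adra, Adrb), muscarinic (Chrm), metabotropic glutamate (Grm), somatostatin (Sstr), galanin (Galr), tachykinin (Tacr), neuropeptide Y (Npy), opioid (Oprd, Oprk, Oprm) or histamine (Hrh) receptor. The name pattern took 65 of the 10647 genes named in the list. Of these, 59 encode G-protein receptors and 2 (Htr3a and Htr3b) encode subunits of a serotonin-gated ion channel. The other 4 are not receptors and were caught by their first letters: the secreted proteases Htra1, Htra3 and Htra4 and the receptor kinase Adrbk2. The newer assembly's gene table holds 3 more symbols that fit the pattern, Chrm5, Htr2b and Htra2, which no peak names. Such a gene cannot be told from one absent from the authors' annotation.

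Chromatin came from whole sciatic nerve of male Sprague Dawley rats at postnatal day 42, on the side that had only its skin cut, 1 day after the nerve of the other leg was transected. It was digested with micrococcal nuclease, and 2 libraries of DNA pulled down with an H3K27me3 antibody and 2 input libraries were made. The files hold 1 pooled list of peaks from the H3K27me3 libraries and no value for either library, so no value below has a replicate error, no test over samples was possible, and all values are descriptions of this list. The sources used here give neither the number of rats behind a library nor the use made of the input.

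G-protein receptors sit in the cell membrane, bind a transmitter or peptide outside the cell and switch on a G protein inside it. Receptors that couple to Gs raise cyclic AMP, those that couple to Gi/o lower it, and those that couple to Gq activate phospholipase C. Most of the genes here are best known from neurons, smooth muscle and glands. In a nerve the axons belong to neurons whose nuclei lie in ganglia and spinal cord, so the chromatin of the nerve is that of Schwann cells, fibroblasts, perineurial, vascular and immune cells. H3K27me3 is placed by Polycomb repressive complex 2 on genes that a cell keeps silent, often over promoters rich in CpG dinucleotides. Since the nerve was profiled whole, more marked cells and more mark per cell cannot be told apart.

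The list held 129550 peaks on the rat assembly rn5. The peak score is the authors' own value with no stated scale, and the median over all peaks was 4.54, with the top 25% starting at 9.90. Scores under 10 were all whole multiples of 0.206 within 0.0051. The 95% intervals given with scores take 1 such step as 1 sequenced tag, which is an assumption, and they cover counting error only. A promoter peak is a peak of the gene with its nearer edge at most 1000 bp from the transcription start site (TSS). Distances are those of a peak's centre, and negative ones lie upstream. As a check of the tissue, 5 of 8 genes of mature Schwann cells are named in the list. Of the 5, 3 had a promoter peak (60%, 95% Wilson interval 23.1 to 88.2%), and the share over all named genes, 38.4%, lay inside that interval. Among the 5, Sox10 had a highest promoter peak of 150 bp with a score of 4.13, Mbp had a peak of 2634 bp (score 77.4), and Pmp22 and Mag had no promoter peak. A silencing mark does not measure expression, so the labelled tissue was not checked further.

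The promoters of 6 genes are shown first because they span the range of what was found, from the highest-scoring gene to genes with no promoter peak. They were picked after the values were seen. Each is the 250 bases before the gene's start in RefSeq on the assembly GRCr8, 5′ to 3′, with every CpG dinucleotide in capitals. The peaks were called on rn5, and coordinates of the assemblies were not converted. Htr1b (chr8:91414816-91415065, minus strand) and Drd4 (chr1:205825687-205825936, plus strand) are the genes with the highest-scoring promoter peaks, each over the TSS, and had 7 and 6 CpG. Htr7 (chr1:243173049-243173298, minus strand) and Oprd1 (chr5:149625000-149625249, minus strand) had peaks on both sides of the TSS and none over it, with 38 and 34 CpG. Hrh1 (chr4:149120261-149120510, plus strand) and Htr1f (chr11:16090666-16090915, minus strand) had no promoter peak, with 22 CpG and 0.
Htr1b: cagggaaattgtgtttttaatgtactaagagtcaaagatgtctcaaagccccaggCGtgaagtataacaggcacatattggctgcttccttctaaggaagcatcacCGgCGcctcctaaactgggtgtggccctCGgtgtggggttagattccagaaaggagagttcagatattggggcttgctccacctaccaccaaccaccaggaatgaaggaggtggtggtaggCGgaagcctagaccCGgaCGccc
Drd4: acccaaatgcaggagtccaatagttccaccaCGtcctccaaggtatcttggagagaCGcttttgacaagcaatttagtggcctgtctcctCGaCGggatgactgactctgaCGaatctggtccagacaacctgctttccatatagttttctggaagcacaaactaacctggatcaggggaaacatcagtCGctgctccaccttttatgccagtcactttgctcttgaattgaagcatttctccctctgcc
Htr7: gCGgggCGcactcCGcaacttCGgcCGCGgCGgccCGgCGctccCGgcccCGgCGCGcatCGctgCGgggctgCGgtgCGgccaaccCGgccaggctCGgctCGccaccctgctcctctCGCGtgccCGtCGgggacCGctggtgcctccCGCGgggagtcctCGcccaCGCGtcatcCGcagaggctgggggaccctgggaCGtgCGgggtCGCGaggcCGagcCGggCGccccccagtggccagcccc
Oprd1: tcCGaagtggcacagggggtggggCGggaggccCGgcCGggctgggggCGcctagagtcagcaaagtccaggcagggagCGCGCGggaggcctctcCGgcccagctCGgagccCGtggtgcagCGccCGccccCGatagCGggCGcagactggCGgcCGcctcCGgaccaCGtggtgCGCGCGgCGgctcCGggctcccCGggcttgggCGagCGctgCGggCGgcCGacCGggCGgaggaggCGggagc
Hrh1: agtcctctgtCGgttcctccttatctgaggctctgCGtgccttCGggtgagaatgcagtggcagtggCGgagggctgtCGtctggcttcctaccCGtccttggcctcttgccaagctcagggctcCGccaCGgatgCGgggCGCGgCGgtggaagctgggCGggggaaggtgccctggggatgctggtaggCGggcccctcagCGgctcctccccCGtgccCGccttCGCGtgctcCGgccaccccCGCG
Htr1f: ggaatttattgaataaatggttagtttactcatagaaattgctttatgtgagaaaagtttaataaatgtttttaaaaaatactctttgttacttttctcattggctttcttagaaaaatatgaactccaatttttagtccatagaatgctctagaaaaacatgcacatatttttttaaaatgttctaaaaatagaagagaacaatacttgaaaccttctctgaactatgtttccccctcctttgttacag

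Most of the receptor genes carried H3K27me3 at the promoter. Of the 65 genes 53 had a promoter peak (81.5%, 95% Wilson interval 70.4 to 89.1%), against 38.4% of all genes named in the list. A gene enters either count only where at least 1 peak names it. Among the 59 G-protein receptors the count was 48 (81.4%). A promoter peak with a score in the top 25% was present at 47 of the 65 (72.3%), against 28.1% of all named genes. One of at least 2000 bp was present at 29 (44.6%, against 15.2%). In 28 genes (43.1%, against 13.8%) a peak contained the TSS itself.

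The peaks had higher median scores and widths than those of the list as a whole, and none came near its highest score. The highest promoter peak score of each gene ranged from 3.09 to 346.3, with a median of 84.0 and quartiles of 33.2 and 155, against a median of 40.6 over the 4088 genes with a promoter peak, whose highest value was 3590.4. The widest promoter peak ranged from 150 to 9439 bp, with a median of 2543 bp against 1341 bp. Both differences were smaller among genes with a peak over the TSS, where the median score was 145.8 against 122.1 and the median width 3808 bp against 3250.0 bp. With peaks within 5000 bp merged, the median width was 9971 bp against 9187 bp. Score and width rose together over the 53 genes (Spearman rho 0.982), which is partly built in, since a wide peak gathers more tags. Per kb of width the median score was 36.1 against 30.0 in all genes with a promoter peak. Of the 53, 35 scored above 40.6, 26 reached 100 and 6 stayed under 10. The 53 highest peaks were centred in the authors' promoter-TSS class in 21 genes (39.6%, against 29.9% of all genes with a promoter peak) and in introns in 16 (30.2%, against 45.1%). They were centred between genes in 9 (17.0%, against 16.0%), in exons in 5 and in 5' untranslated regions in 2.

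**Figure D1:**
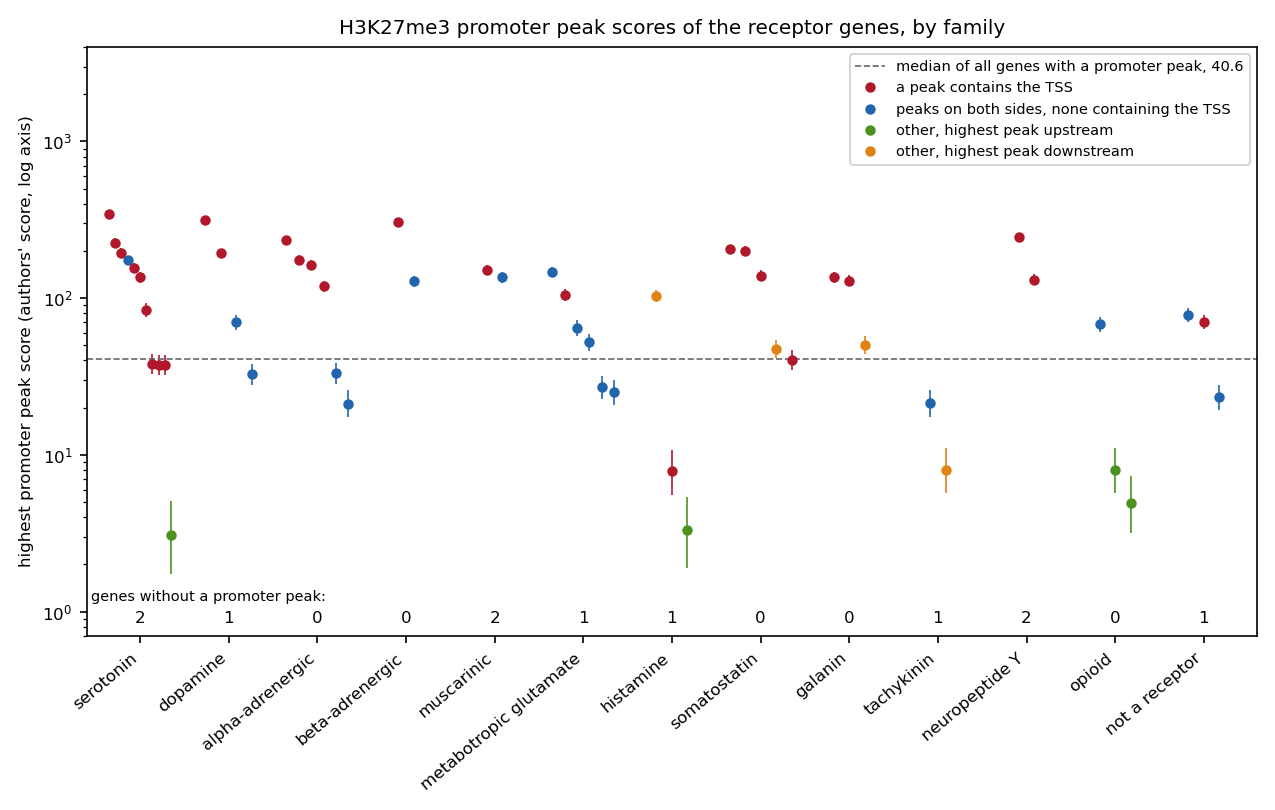
Highest promoter peak score of each gene named in the text that has a promoter peak (vertical log axis, authors' score), by receptor family (horizontal axis), with bars for the 95% counting interval and colours for how the peaks lie around the TSS. The numbers at the bottom count the named genes of each family without a promoter peak, and the dashed line is the median of 40.6 over all genes with one.

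Serotonin receptors held the highest value of all and the widest spread. Of 13 named Htr genes 11 had a promoter peak, 9 of them with a peak that contained the TSS. Htr1b, an inhibitory receptor of nerve endings, lay under a peak of 9439 bp (rn5 chromosome 8, 88663214 to 88672653) that was centred 46 bp from the TSS and scored 346.3 (interval 330 to 363). Htr5b followed with 226.3 (213 to 240) over 5814 bp centred at 1447 bp in intron 1 (chromosome 13, 42646162 to 42651976). Htr2c, a Gq-coupled receptor known from the brain, scored 194.7 (182 to 208) over 4672 bp centred at -806 bp (chromosome X, 118222971 to 118227643, promoter-TSS class). Htr7, which couples to Gs, scored 174.7 (163 to 187) over 4448 bp centred at 2420 bp in intron 1 (chromosome 1, 261875093 to 261879541). Htr6 scored 155.1 and Htr2a, a receptor of brain, platelets and smooth muscle, 135.7.

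The lower part of the family reached down to peaks of the smallest width. Htr1a, known as an autoreceptor of serotonin neurons, scored 37.3 (32.1 to 43.2) and Htr5a 38.0 (32.7 to 43.8), so their intervals overlap each other and not that of Htr1b. The peak of 38.0 at Htr5a was among 3 promoter peaks, which summed to 81.4. The nearer edge of that peak lay 746.5 bp from the TSS, which another of them contained. The channel subunits Htr3b and Htr3a, whose peaks lie 74265 bp apart on chromosome 8, scored 84.0 and 37.3. Htr4 had a single promoter peak of 150 bp with a score of 3.09 (1.73 to 5.10), although 51 peaks are assigned to it. Htr1d and Htr1f had no promoter peak, and their closest peaks lay 12782 and 18597 bp from the TSS.

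Dopamine receptors had promoter peaks in 4 of 5 genes. Drd4 lay under the second highest promoter peak of all the genes (313.1, interval 298 to 329, 5552 bp centred at 1466 bp, chromosome 1, 221194534 to 221200086, intron 1), and no other peak is assigned to it. At Drd1, the Gs-coupled receptor of the striatum, a peak of 4892 bp (192.9, 181 to 206, chromosome 17, 13207324 to 13212216) was centred at -2386 bp between genes and ended 60 bp past the TSS, and a separate peak of 2353 bp (88.3) was centred in the 3' untranslated region. Drd2 scored 70.1 and Drd5 32.6, both with peaks on either side of the TSS. Drd3 had none, and its closest peak (150 bp, score 3.92) lay 8827 bp away.

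Every alpha-adrenergic receptor had a promoter peak. Adra1a, a receptor for noradrenaline in smooth muscle, had the highest single promoter peak of the alpha group (234.7, 221 to 249). This peak spanned 5163 bp centred at -486 bp (chromosome 15, 48292929 to 48298092, promoter-TSS class). Adra1d scored 175.1 (164 to 187) over 4720 bp centred at -1937 bp between genes (chromosome 3, 130636784 to 130641504). The 2 promoter peaks of Adra1d together summed to 238.6. Adra2a, an autoreceptor of noradrenergic neurons, scored 163.6 and Adra2b 119.2. Adra2c (33.2, 28.3 to 38.8) and Adra1b (21.2, 17.3 to 25.8) were the lowest of the 6. Adrb3, the beta receptor of fat cells, lay under 6364 bp centred at 1220 bp with a score of 307.6 (292 to 324, chromosome 16, 68672021 to 68678385, exon 1). Adrb1, the main beta receptor of the heart, had a promoter peak of 2725 bp upstream (128.3, chromosome 1, 284914369 to 284917094), a small one centred in its exon (650 bp, 20.6), and just outside the promoter reach a peak of 6249 bp that scored 309.

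Acetylcholine and histamine receptors included genes with and genes without a promoter peak. Of 4 named muscarinic genes, Chrm4 (152.2, 141 to 164, 3452 bp, chromosome 3, 87531338 to 87534790, intron 1) and Chrm3 (135.7, 126 to 146, 2791 bp, chromosome 17, 66214259 to 66217050) had promoter peaks. Chrm1 and Chrm2 did not. For Chrm2, the muscarinic receptor of the heart, the closest of 4 peaks lay 102463 bp from the TSS. Among the histamine receptors Hrh3, a brake on transmitter release, scored 102.7 (93.9 to 112, 2621 bp, chromosome 3, 181639603 to 181642224, exon 2). Hrh4 (7.84) and Hrh2 (3.30), a receptor of the stomach, had only small peaks, and Hrh1, known from vessels and smooth muscle, had no promoter peak, the closest lying 8185 bp away.

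Metabotropic glutamate receptors had promoter peaks in 7 of 8 genes, mostly at moderate scores. Grm4 was highest with 147.3 (137 to 158, 4133 bp, chromosome 20, 9071065 to 9075198), in an intron of another annotated transcript, and Grm6, a receptor of retinal bipolar cells, followed with 104.4 (95.5 to 114). Grm3 (64.6), Grm2 (52.4), Grm7 (27) and Grm8 (25.2) scored lower, and Grm5 had no promoter peak. Only Grm6 had a peak that contained the TSS, and 5 of the others had peaks on both sides of it. At Grm8 and Grm7 a peak outside the promoter reach scored higher than the promoter peak. That of Grm8 (319.9, 7640 bp) was centred at -9016 bp. That of Grm7 (67.5, 2528 bp) was centred at 2294 bp, with its nearer edge 1030 bp from the TSS.

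Peptide receptors differed both between and within families. All 5 somatostatin receptors had promoter peaks, and Sstr1 (139.4, 129 to 150), Sstr2 and Sstr5 stood well above Sstr4 (47.4) and Sstr3 (40.4). Sstr2 scored 205.2 (193 to 218) over 4790 bp centred at 643 bp in intron 1 (chromosome 10, 101814277 to 101819067). Sstr5 scored 200.9 (188 to 214) over 5245 bp centred at 892 bp in intron 1 (chromosome 10, 14666569 to 14671814), and the intervals of these 2 overlapped. The galanin receptors Galr3 (135.7, 126 to 146, 3518 bp, chromosome 7, 120262201 to 120265719) and Galr1 (128.9, 119 to 139) had overlapping intervals, and Galr2 scored 50.3 (44.2 to 57.1). Galr2 has 2 placements 74760 bp apart in rn5, with a promoter peak at each (50.3 and 39.4), so its reads may be split between copies.

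Npy1r and Npy5r, receptors of neuropeptide Y, are neighbours on chromosome 16. Npy1r lay under 6872 bp centred at -827 bp (244, 230 to 258, 24669250 to 24676122, promoter-TSS class) and Npy5r under 4301 bp (131.4, 121 to 142), and the peaks were 2060 bp apart. Npy2r and Npy4r had no promoter peak. No other pair of the 65 genes had peaks as close, the next being Htr3a and Htr3b.

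Opioid and tachykinin receptors had the lowest median scores of the peptide receptor families (8.04 and 14.8). Tacr3, the neurokinin B receptor, scored 21.5 (17.5 to 26.0, 731 bp, chromosome 2, 258547941 to 258548672), Tacr1, the substance P receptor, 8.04, and Tacr2 had no promoter peak, its closest lying 2079 bp away. Oprd1, the delta receptor, scored 67.9 (60.7 to 75.6, 1195 bp, chromosome 5, 153996436 to 153997631). The kappa receptor Oprk1 (8.04, 292 bp) and the mu receptor Oprm1 (4.95, 150 bp) had intervals below that of Oprd1. No other peak is assigned to Oprk1, and Oprm1 had 1 more (score 2.89). The proteases Htra4 (78.0), Htra1 (70.3) and Htra3 (23.3), which belong to the set by name only, also had promoter peaks, and the kinase Adrbk2 had none, its closest peak lying 16620 bp away.

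How the mark lay around the TSS differed from gene to gene. In 28 of the 53 genes a peak contained the TSS (52.8%, against 35.9% of all genes with a promoter peak). In 16 genes (30.2%, against 27.6%) peaks flanked the TSS on both sides and none contained it. Counted over every named gene, with or without a promoter peak, the flanked share was 24.6% of the 65 against 10.6%. In the other 9 genes no peak contained the TSS and no single TSS was flanked. At Hrh3 peaks lay on both sides but were assigned to different annotated TSS. The unmarked stretch between the flanking peaks ranged from 330.5 bp at Chrm3 to 1310.5 bp at Adra2c, with a median of 642 bp, against 666.5 bp over all flanked TSS of the list (quartiles 458 and 968 bp). At Chrm3 the flanks scored 123.8 (114 to 134) and 135.7 (126 to 146), and at Grm4 147.3 and 137.6 (127 to 148), so the intervals of both flanks overlapped. At Htr7 the flanks were unequal, with 65.4 (58.4 to 73.0) upstream and 174.7 (163 to 187) downstream. The upstream flank scored higher in 8 of the 16 genes. The highest promoter peak was centred upstream of the TSS in 30 of the 53 genes, against 1778 of the 4088, with a median distance of -195 bp against 292.5 bp in all genes with a promoter peak.

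**Figure D2:**
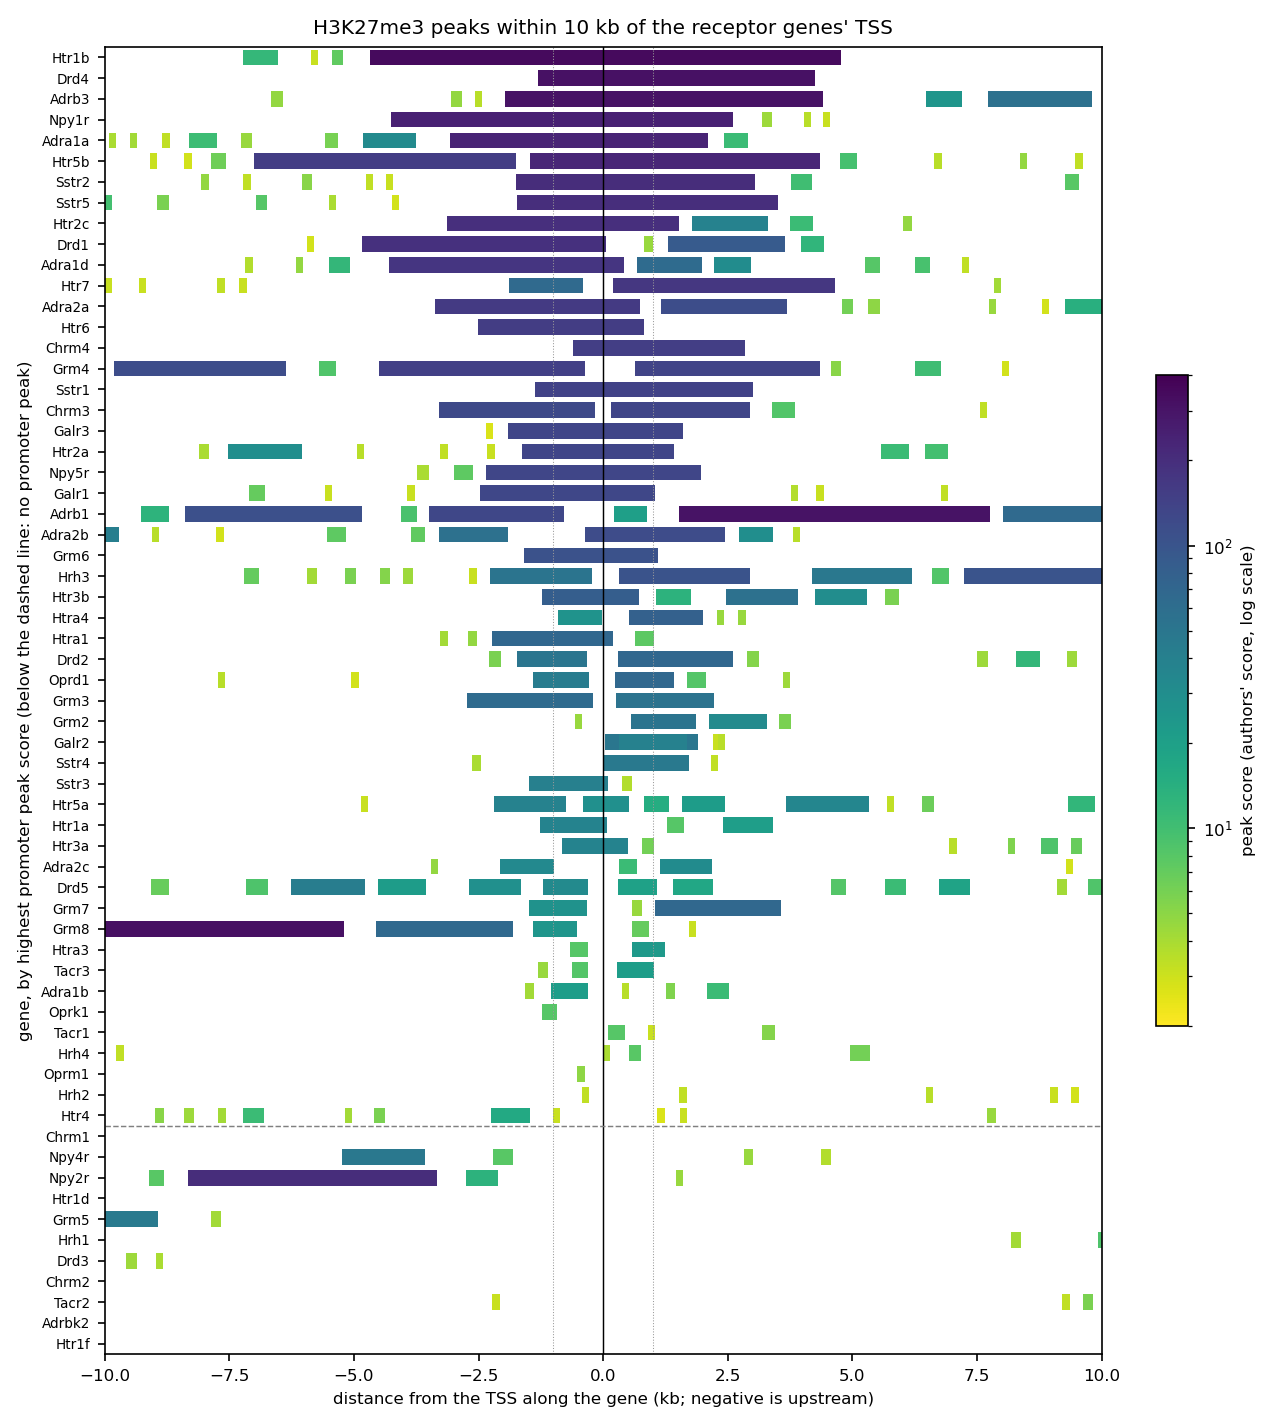
Each row is 1 gene named in the text, ordered by its highest promoter peak score, and each block is an H3K27me3 peak drawn to scale against the distance from the TSS in kb (horizontal axis), coloured by score on a log scale, with dotted lines at 1 kb. The top rows are covered by 1 block over the TSS, Htr7, Grm4 and Chrm3 show a gap at the TSS, and below the dashed line lie genes without a promoter peak.

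Among the 12 genes without a promoter peak, 8 had a highest assigned peak with a score in the top 25% of all peaks (66.7%, Wilson interval 39.1 to 86.2%). The share over all 6559 named genes without a promoter peak was 57.8%, inside that interval. At Npy2r a peak of 4998 bp scored 205.9 and was centred at -5839 bp (chromosome 2, 200949240 to 200954238). The only peak of Chrm1 (2726 bp, score 105.6, 96.7 to 115, chromosome 1, 231803132 to 231805858) was centred at -15391 bp. The highest peaks of Htr1d (124.2, 2713 bp), Npy4r (48.1) and Grm5 (45.6, 2134 bp) were centred at -19645, -4403 and -9995 bp, and those of Hrh1 (29.1), Adrbk2 (27.6) and Htr1f (10.5) lay farther out. Whether these peaks belong to promoters that the authors' annotation lacks, or to neighbouring genes, was not tested. Chrm2, Drd3 and Tacr2 had no peak above 6.39. Just inside the 1000 bp reach, the closest peak edge lay 932 bp from the TSS at Oprk1, 862 bp at Htr4 and 521.5 bp at Grm8. Just outside it lay Npy2r (1461 bp) and Npy4r (1804 bp).

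Beyond the promoters, the 65 genes had 788 further peaks, most of them small. Their median width was 189 bp and their median score 4.33, and 46.8% had the smallest width of 150 bp. The median gene had 7 peaks, as in the whole list, and Adrb1 had the most with 53. Promoter peaks, 81 in number, held 42.5% of the summed score of all 869. Larger peaks of at least 2000 bp outside the promoter reach were found at 18 genes (27.7%, Wilson interval 18.3 to 39.6%), against 23% of all named genes. They included those of Adrb1, Grm8, Npy2r, Htr5b (157.2, centred at -4380 bp) and Adra1d (152.8, centred at 13146 bp). In 11 of the 53 genes with a promoter peak (20.8%) a peak outside the promoter reach scored higher, against 37.7% of all genes with a promoter peak.

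By the G protein that each receptor mainly couples to, the counts were 8 of 9 for Gs (88.9%), 30 of 36 for Gi/o (83.3%) and 10 of 14 for Gq (71.4%). The share over all named genes was 38.4%. The median of the highest promoter peak scores was 142 for Gs, 104 for Gi/o and 93.0 for Gq, with overlapping ranges (3.09 to 307.6, 4.95 to 346.3 and 8.04 to 234.7). The genes without a promoter peak included Drd3 and Chrm2, of 6 for Gi/o, and Chrm1, Grm5, Hrh1 and Tacr2 for Gq.

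The CpG content of the RefSeq promoters could be read for 51 of the 65 genes. With a promoter peak, 40 genes had a median of 14.5 CpG in 250 bases, and 11 genes without one had a median of 7. Over all named genes with a sequence, the medians were 13 for both those with and those without a promoter peak. At least 1 CpG (the letters CG, the same on both strands) was present in 97.2% of these promoters. Promoters with a CpG observed over expected ratio of at least 0.6 and over 50% G and C made up 23 of the 40 (57.5%) and 3 of the 11 (Hrh1, Htr1d and Adrbk2). Over all named genes with a sequence these shares were 46.7% of those with a promoter peak and 50.3% of those without. The order of scores did not follow CpG content (Spearman rho -0.07 over the 40 genes, a description). The genes with a peak over the TSS had a median of 11 CpG and those with a gap at the TSS 20, beside 11 and 17 for all genes with these arrangements. Single genes went both ways. Among those with few CpG, Hrh4 (0), Drd1 (4), Grm6 (5), Npy5r (5), Drd4 and Htr1b had a peak over the TSS, and Grm8 (5) and Grm7 (9) were flanked. Among those with many, Htr7, Adra2c (36) and Oprd1 were flanked, and Chrm4 (28) and Htra1 (25) had a peak over the TSS. The last bases before the gene's start were AG in 4 of the 11 genes without a promoter peak and in 3 of the 40 with one. The share over all named genes with a sequence was 8.28%. The 4 were Htr1f (0 CpG), Drd3 (2), Npy2r (3) and Tacr2 (7), and the 3 were Chrm4 (28), Drd1 (4) and Drd2 (14). The part of these genes in the medians of 7 and 14.5 CpG was not tested. Whether the RefSeq starts match the TSS used for the peaks was not tested either.

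**Figure D3:**
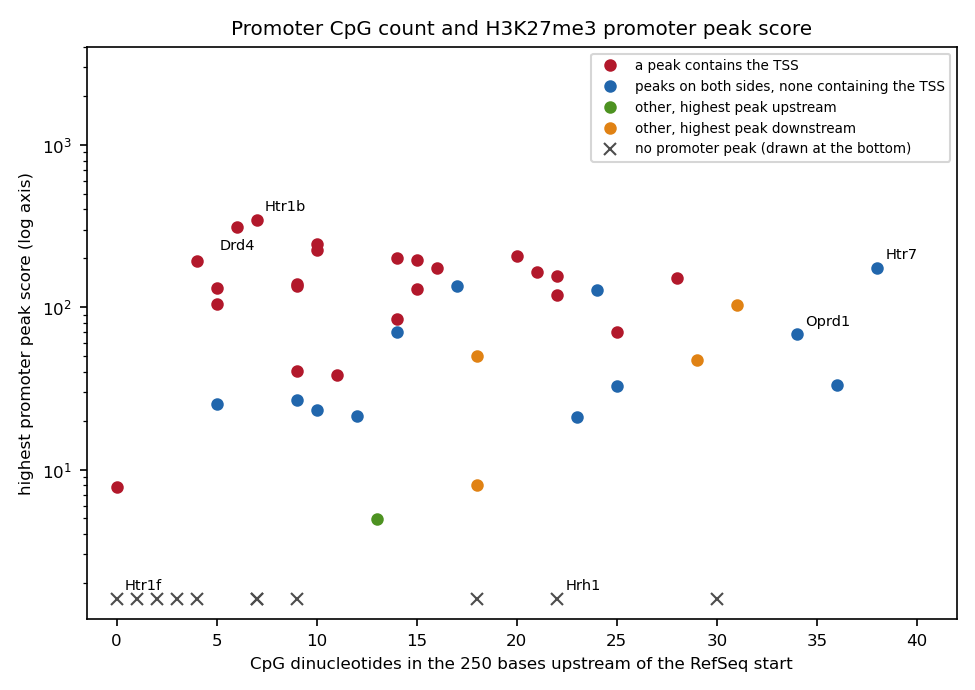
CpG dinucleotides in the 250 bases upstream of the RefSeq start (horizontal axis) against the highest promoter peak score (vertical log axis) for the 51 genes with a sequence, coloured by how the peaks lie around the TSS, with crosses for the 11 genes without a promoter peak. Scores above 100 occur from 4 CpG (Drd1) to 38 CpG (Htr7), and the 6 genes whose sequences are printed are named.

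Genes that make, store or take up the ligands of these receptors were also marked. Among transmitter synthesis and transport genes, 13 of the 14 named in the list had a promoter peak (92.9%, against 38.4% of all named genes). The highest-scoring were the dopamine transporter Slc6a3 (299.1), the vesicular monoamine transporter Slc18a1 (126.9) and the vesicular acetylcholine transporter Slc18a3 (124.4). The enzymes Th (4.33) and Tph1 (3.92), which start catecholamine and serotonin synthesis, had only small peaks, and the serotonin transporter Slc6a4 had none. Of 13 peptide precursor genes 11 had one (84.6%), with Pyy (427), Pdyn (241.3) and Pomc (218.6) highest, and Sst at 203.6, Gal at 123.1 and Npy at 88.3. Receptors for peptides outside the name pattern had promoter peaks in 40 of 51 (78.4%), with Cckbr (462.5), Gipr (340.3) and Crhr1 (338.1) at the top. The endothelin receptor Ednrb had none.

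Of the G protein, kinase, arrestin and effector genes, 14 of the 28 named had a promoter peak (50.0%, Wilson interval 32.6 to 67.4%). The share over all named genes, 38.4%, lay inside that interval. The highest-scoring genes were the phospholipase Plcb2 (159.7) and the G protein subunits Gnal (79.6), known from olfactory neurons, and Gnas (69.7), an imprinted locus with several promoters. Genes without a promoter peak included Gnaq, Gnai2, Gnb1, Gnb2, Arrb2, Gnaz and Adcy5, while Gnai1 (43.9) and Adcy6 (3.3) had one. A further 8 genes of this list are named by no peak, Gna11, Gnai3 and Arrb1 among them. These lists were chosen with results of these data in view, and their shares are descriptions with no test.

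**Figure D4:**
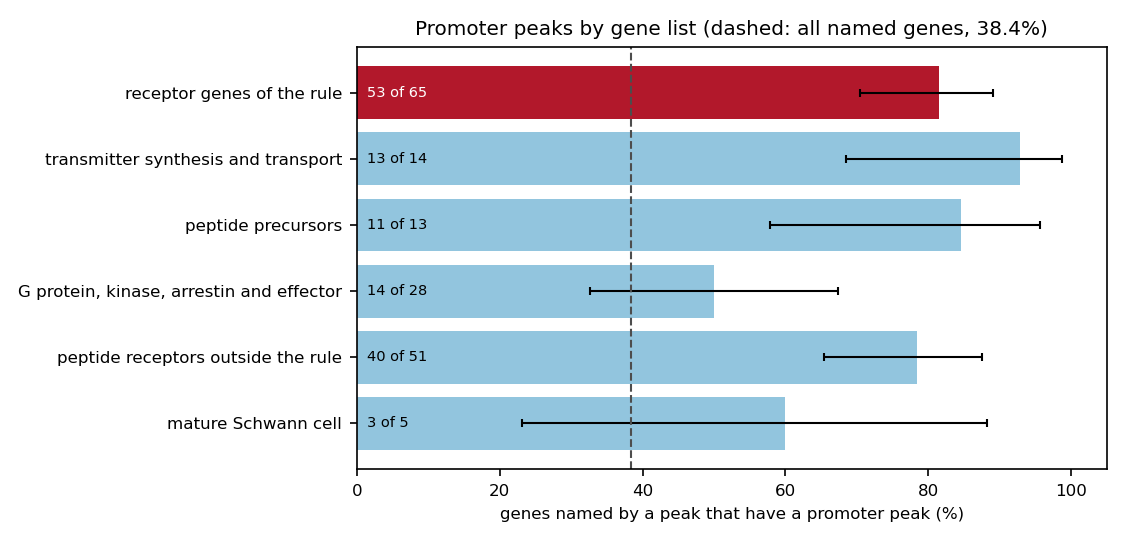
Share of the genes named in the list that have a promoter peak (horizontal axis, percent) for the receptor genes (red) and the 5 other gene lists (blue), with bars for the 95% Wilson interval. The receptor genes stand at 81.5% and the signalling genes inside the cell at 50.0%, against 38.4% of all named genes (dashed line).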

How the data were processed

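Histone H3K27me3 was measured by sequencing of immunoprecipitated DNA from 2 libraries of sham-side rat sciatic nerve, beside 2 input libraries. The submitters' processing notes name CASAVA 1.8.2, Bowtie and HOMER. Per the file headers, the combined peaks were annotated with HOMER against rn5. The sources used here do not give Bowtie's version, how peaks were called and libraries pooled, or how the input entered. The authors deposited a score for each peak, whose scale is not stated, with its position and the distance of its centre to a TSS, in bp. The depth of each library is unknown.

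The genes were matched by symbol, and a promoter peak is one whose distance to the TSS is at most its width divided by 2 plus 1000 bp. Members were named, except a few genes that are not reported here, with full values for the 12 highest scores and the highest of each family, and for each other list the 3 highest genes were named, with other genes of these lists picked after their values were seen. The members, lists and alternatives were chosen with earlier results of these data known. The arrangement of peaks around the TSS and the AG count were examined after seeing the data. Shares have Wilson intervals and scores exact Poisson intervals (95%). Promoter sequences and gene symbols came from RefSeq on GRCr8. All 65 genes matched by gene identifier and 51 had a promoter sequence. Python 3.11.15, pandas 2.3.3 and scipy 1.17.1 were used, and the rule for promoter peaks was tested on simulated data. Alternatives changed the promoter reach, the score and width minimum, the merging of peaks and the gene set.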

Additional observations from a re-analysis of the deposited data

How the results depend on the processing

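The list pools the libraries, so no library could be left out. No paired analysis was possible because there is 1 column of pooled values and no value per replicate. The count of 53 genes kept its size (47 to 57) with a reach of 5000 bp, with scores at or above the median or in the top 25%, with peaks within 5000 bp merged, and without the 4 genes that are not receptors or the channel subunits. At a reach of 5000 bp, 57 genes stand beside 61.9% of all named genes. The count fell to 28 for peaks over the TSS itself, to 29 for the authors' promoter-TSS class and to 29 for widths of at least 2000 bp. The share over all named genes was then 13.8%, 18.4% and 15.2%, and it was 32.7% with scores at or above the median, 28.1% with the top 25% and 17.2% over the protein-coding genes of GRCr8.

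With peaks that contain the TSS the median score was 145.8 (122.1 in all genes) and the median width 3808 bp (3250.0 bp), and with peaks merged the width was 9971 bp (9187 bp). The gap to all genes shrank in each of these. With the scores of a gene's promoter peaks summed, the median was 117.4 against 49.5 in all genes. In merging, the strand of a gene with a single peak came from GRCr8, whose strand matched that read from rn5 at 91.2% of the TSS where both were known. By family, peaks over the TSS left 2 dopamine, 1 beta-adrenergic, 1 muscarinic, 1 metabotropic glutamate, 1 histamine, 0 tachykinin and 0 opioid receptor genes. Scores in the top 25% left 1 gene each of the histamine, tachykinin and opioid receptors. In all, 23 values moved and 26 did not.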
